A study of Mus musculus with 29 samples.

Results

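The Notch set comprised 10 mouse genes: the receptors Notch1, Notch2 and Notch3, the ligands Jag1, Jag2 and Dll1, the nuclear proteins Rbpj and Maml1, and the target genes Hes1 and Hey1. A probe annotated with one of these symbols was kept where 2 or more of 29 Illumina bead arrays detected it at p below 0.01. Of the 13 such probes, 9 were kept, 1 for each of 9 genes, among 11794 probes kept of 25697 in all. No Rbpj probe was kept: its 3 probes were detected on 0, 0 and 1 of 29 arrays, and a second Notch2 probe was detected on none, so these 4 probes are described only by that. Jag2, Dll1 and Hes1 were detected on 29 of 29 arrays, Notch3 on 28 and Notch1 on 27. Notch2 was detected on 8 arrays, Jag1 on 6, Maml1 on 4 and Hey1 on 2, so most values of these 4 probes lie at the background.

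The cells were primary keratinocytes, the epithelial cells of the epidermis, from tail skin of C57BL/6 mice that carry the doxycycline-inducible transgene c-FostetON. Cultures given doxycycline (Dox) at 6, 12, 24, 48 and 72 h gave 3, 3, 3, 2 and 4 arrays, and untreated cultures at the same times gave 2, 2, 3, 3 and 4. All cultures carried the transgene and none without it was given Dox, so an effect of Dox itself and an effect of c-Fos cannot be told apart. The age and number of the mice, whether replicates came from separate cultures, and the promoter and cell type that drive the inducible system are stated by none of the labels. The labels give the dose as 1 µg/ml in 1 field and 1 µg/L in another. In each treatment the 2 arrays at 72 h that share the letter C were averaged, so that group had 3 replicates.

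Notch receptors are cell-surface proteins that are cut after they bind a Jagged or Delta-like ligand on a neighbouring cell. The released intracellular part enters the nucleus, joins the DNA-binding protein Rbpj and a Mastermind protein such as Maml1, and switches on target genes, among them the repressors of the Hes and Hey families. In mouse epidermis the pathway is known for its role in the step from basal to spinous keratinocytes, with Notch1 acting against the growth of basal cells.

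The median signal per array was 54.5 to 74.5, and 33.4 to 37.8% of probes were detected on each array, so the small number of arrays and the low signal limit the precision of each value. Fos, the gene of the transgene, gave lower signals on the arrays labelled Dox at every time (differences of -0.39, -0.32, -0.76, -0.83 and -0.78 on the log2 scale at 6, 12, 24, 48 and 72 h, with groups that did not overlap). Whether that probe reads the transgene's RNA is not known from the labels, so it does not check them, and all directions follow the labels. The arrays fell into 4 sets by the distribution of the authors' values: the arrays compared at 6, at 48 and at 72 h share a set, while at 12 and at 24 h a part of the compared arrays comes from another one. A pair of Actb probes differed by -4.03 to -3.44 on Dox arrays at 6 h and by 3.95 to 4.59 on untreated arrays at 6 h, by -2.59 to -1.75 on Dox and 1.1 to 1.63 on untreated arrays at 12 h, and by -3.71 to -3.09 on Dox and -2.41 to -1.71 on untreated arrays at 72 h. At 24 and 48 h the treatments overlapped in it. The untreated arrays at 6 h thus stood apart from all other arrays in this measure. Of 9 keratinocyte markers 8 were kept and 7 were detected on all arrays, and the summed signal of the list overlapped between treatments at 6, 12 and 24 h. It was 56010 to 59800 on Dox arrays and 53170 to 55460 on untreated arrays at 48 h, and 54830 to 58330 on Dox arrays and 50380 to 54410 on untreated arrays at 72 h, without overlap. At 72 h 4 of these 8 markers were called, all higher with Dox, beside 6.25% of all 8271 genes in both directions: Krt6a (0.98), Itga6 (0.89), Col17a1 (0.73) and Trp63 (0.56). The others, Krt5 (-0.05), Krt14 (-0.01), Krt17 (-0.10) and Perp (0.15), were not called. Of the same 8 markers, Krt6a (1.56) and Krt5 (0.77) were called higher with Dox at 6 h, beside 24.3% of all genes. Col17a1 (-0.31) and Krt17 (-0.24) were lower there without a call. At 24 h Itga6 (0.58) was called higher, beside 2.89% of all genes, and Krt5 (-0.27) and Col17a1 (-0.19) were lower without a call. Of 7 fibroblast markers only Thy1 was kept, of 5 endothelial markers only Kdr, of 6 melanocyte markers 4 and of 5 immune markers none, with the collagen genes Col1a1, Col1a2 and Col3a1 and the immune gene Ptprc not kept. The summed fibroblast signal at 6 h, that of Thy1 alone, was 13 to 17 on Dox arrays and 24.7 to 39.1 on untreated arrays. Thy1 was detected on 11 arrays and was called lower with Dox at 6 h (-0.64). The summed melanocyte signal at 6 h was 50.8 to 61.9 on Dox arrays and 63.2 to 81.4 on untreated arrays. None of its 4 genes was called there: Dct (-0.33), Mlana (-0.22) and Tyrp1 (-0.15) were lower and Pmel (0.09) higher. At 48 h the Kdr signal was 7.85 to 8.46 on Dox arrays and 14.3 to 18.9 on untreated arrays. That difference was not called (-0.42), and Kdr was detected on 4 arrays. The part of these lists in the member differences, at 6, 24, 48 or 72 h, was not tested.

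Most members did not pass the test at most times, and the ligand Jag2 and the target Hes1 are described most fully. Between treatments the counts of called members lay near the shares over all probes, so they are not a result about the set. All levels below are log2 signals after background correction and quantile normalization, all differences are Dox minus untreated on that scale, and a call is a Benjamini-Hochberg adjusted p below 0.05 in a limma fit over all kept probes. At 6 h 2 of 9 member probes were called, 1 higher and 1 lower, beside 25.4% of all 11794 probes, 12.5% higher and 12.8% lower. At 12 h none was called beside 1.60% of all probes, at 24 h none beside 2.54%, and at 48 h none beside 2.35%. At those 3 times an unadjusted limma p below 0.05 was reached by 4, 2 and 2 members, beside 12.9, 15.8 and 12.2% of all probes. At 72 h 1 of 9 was called, higher with Dox, beside 5.61% of all probes, 2.70% higher. The median difference of the 9 probes was -0.19, -0.17, -0.17, 0.04 and -0.05 at the 5 times, beside -0.05, -0.01, -0.01, -0.00 and 0.00 over all probes. The replicates of the treatments did not overlap for 3, 3, 2, 3 and 4 members, beside 49.2, 27.2, 20.5, 26 and 24.5% of all probes.

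**Figure D1:**
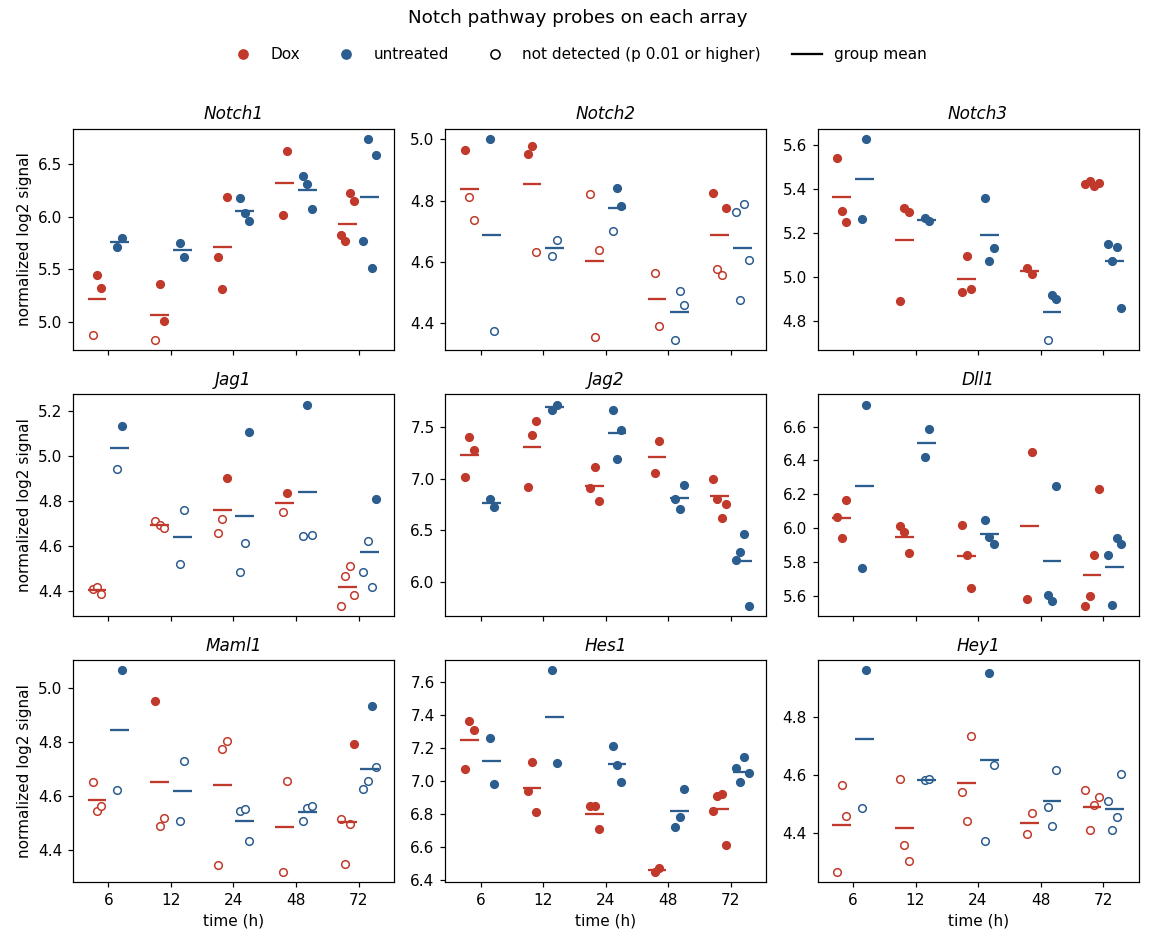
Normalized log2 signal (y axis) of the 9 kept Notch probes on each of 29 arrays by time in hours (x axis), Dox to the left of untreated at each time. Filled points were detected, open points were not, and bars are group means over replicates. Jag2 at 72 h lies between 6.62 and 7.0 on Dox arrays and between 5.76 and 6.46 on untreated arrays, while Hey1, Maml1, Jag1 and Notch2 are mostly open points.

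Among the receptors, Notch1, the main Notch receptor of basal and spinous keratinocytes, was lower with Dox in the mean over the 5 times, without a call at any single time. In RNA of whole cultures a change in the share of cells that express a gene and a change in RNA per cell cannot be told apart. At 6 h its level was 4.88, 5.45 and 5.32 on Dox arrays and 5.71 and 5.80 on untreated arrays. At 12 h it was 4.83, 5.37 and 5.01 on Dox arrays and 5.75 and 5.61 on untreated arrays. All Dox replicates lay below all untreated replicates at these 2 times, with differences of -0.54 ± 0.24 (SE, adjusted p = 0.111) at 6 h and -0.61 ± 0.24 (SE, adjusted p = 0.252) at 12 h. At 24 h Notch1 was 5.62, 5.32 and 6.19 on Dox arrays and 6.18, 6.03 and 5.96 on untreated arrays. At 48 h it was 6.01 and 6.62 on Dox arrays and 6.39, 6.31 and 6.07 on untreated arrays. The groups overlapped from 24 h on, with differences of -0.35, 0.06 and -0.26 at 24, 48 and 72 h. At 72 h the levels were 5.82, 5.77, 6.23 and 6.15 on Dox arrays and 5.77, 6.74, 5.51 and 6.58 on untreated arrays, the last 4 being the widest spread of Notch1 in any group. The mean of the 5 differences was -0.34 ± 0.10 (SE, adjusted p = 0.0225, 1.27-fold lower with Dox), 1 of the 2 members called in that mean, both lower, beside 19.9% of all probes, 9.79% lower. That call was lost without 6 h (-0.29, adjusted p = 0.124), with the array sets as a block (-0.34, adjusted p = 0.0651), on the authors' values (-0.08, adjusted p = 0.236) and with no detection filter (-0.34, adjusted p = 0.0698). With the Actb probe difference as a covariate it was lost at a like estimate and a larger SE (-0.33 ± 0.18, SE, adjusted p = 0.403). It was also lost without untreated replicate 1 at 12 h (-0.33) or Dox replicate 1 at 48 h (-0.28).

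Notch3, a receptor that acts beside Notch1 in suprabasal epidermis, separated the treatments at 48 and 72 h without a call. At 72 h its level was 5.42, 5.44, 5.41 and 5.43 on Dox arrays and 5.15, 5.07, 5.14 and 4.86 on untreated arrays. At 48 h it was 5.04 and 5.02 on Dox arrays and 4.71, 4.92 and 4.90 on untreated arrays. Every Dox array lay above every untreated array at both times, but neither difference was called (0.35 ± 0.12, SE, adjusted p = 0.0897 at 72 h, and 0.18 ± 0.13, SE, adjusted p = 0.659 at 48 h). The difference at 72 h was called under 4 of 12 other settings, with adjusted p from 0.0216 to 0.246 over all 12. At 6, 12 and 24 h the groups overlapped, with differences of -0.08, -0.09 and -0.20, and whether the Dox effect differed between times was not called for Notch3 (F = 3.48, adjusted p = 0.0995). Notch2, a receptor of many epithelia, was detected on 5 Dox arrays and 3 untreated arrays, its level lay between 4.35 and 5.00 on all arrays, and its differences were 0.15, 0.21, -0.17, 0.04 and 0.04, none called.

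Jag2, a Jagged ligand detected on every array, was the member whose difference depended on time. At 6 h its level was 7.01, 7.40 and 7.28 on Dox arrays and 6.80 and 6.72 on untreated arrays. At 12 h it was 6.92, 7.42 and 7.56 on Dox arrays and 7.67 and 7.72 on untreated arrays. The groups did not overlap at either time, with Dox above untreated at 6 h and below it at 12 h. At 24 h the levels were 6.91, 7.11 and 6.78 on Dox arrays and 7.67, 7.19 and 7.47 on untreated arrays, again with every Dox array lower. At 48 h they were 7.06 and 7.37 on Dox arrays and 6.80, 6.71 and 6.94 on untreated arrays. At 72 h they were 7.0, 6.80, 6.62 and 6.76 on Dox arrays and 6.21, 6.29, 6.46 and 5.76 on untreated arrays. Dox arrays were higher than all untreated arrays at these last 2 times, so that the replicates did not overlap at any of the 5 times and the direction turned between them.

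The Jag2 differences were 0.47, -0.39, -0.51, 0.40 and 0.63 at 6, 12, 24, 48 and 72 h. The 72 h difference was called (0.63 ± 0.15, SE, 1.54-fold higher with Dox, adjusted p = 0.00887), and so was that at 6 h (0.47 ± 0.17, SE, 1.38-fold, adjusted p = 0.0384). Those at 12, 24 and 48 h were not called (adjusted p = 0.291, 0.0625 and 0.295). A test that the 5 differences are not equal passed for Jag2 (F = 11.7, adjusted p = 0.000527), the only member called in that test beside 15.3% of all probes. The 72 h call was lost without Dox replicate 1 (0.54, adjusted p = 0.0686), on the authors' values (0.29, adjusted p = 0.160) and with median scaling (0.59, adjusted p = 0.0637). The 6 h call held under 5 of 17 alternatives, with adjusted p from 0.0178 to 0.391, and was lost without either untreated replicate (0.51 and 0.43, adjusted p = 0.105 and 0.183) and without Dox replicate 2 or 3 (0.38 and 0.45, adjusted p = 0.136 and 0.0890). The 24 h difference was called without untreated replicate 2 (-0.64, adjusted p = 0.0333), with median scaling (-0.84, adjusted p = 0.00323), on the authors' values (-0.41, adjusted p = 0.0190) and with no background correction (-0.37, adjusted p = 0.0429).

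Over the time course the Dox mean of Jag2 was 7.23 ± 0.20, 7.30 ± 0.34, 6.93 ± 0.17, 7.21 ± 0.22 and 6.83 ± 0.16 at 6, 12, 24, 48 and 72 h (SD, n = 3, 3, 3, 2 and 3). The untreated mean was 6.76 ± 0.06, 7.70 ± 0.04, 7.44 ± 0.24, 6.81 ± 0.12 and 6.20 ± 0.09 (SD, n = 2, 2, 3, 3 and 3). At 72 h both SDs were taken after the 2 letter C arrays of each treatment were averaged. The untreated letter C value, 6.11, is the mean of the highest and the lowest untreated array at 72 h. The untreated SD of 0.09 thus understates the spread of the single arrays given above. The Dox means spanned less than the untreated means, of which the highest was at 12 h and the lowest at 72 h. The Dox 24 h array that shares a set with the untreated 24 h arrays had 6.91, below all 3 of them. The untreated 12 h array that shares a set with the 6 h arrays had 7.67, above both untreated 6 h arrays.

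**Figure D2:**
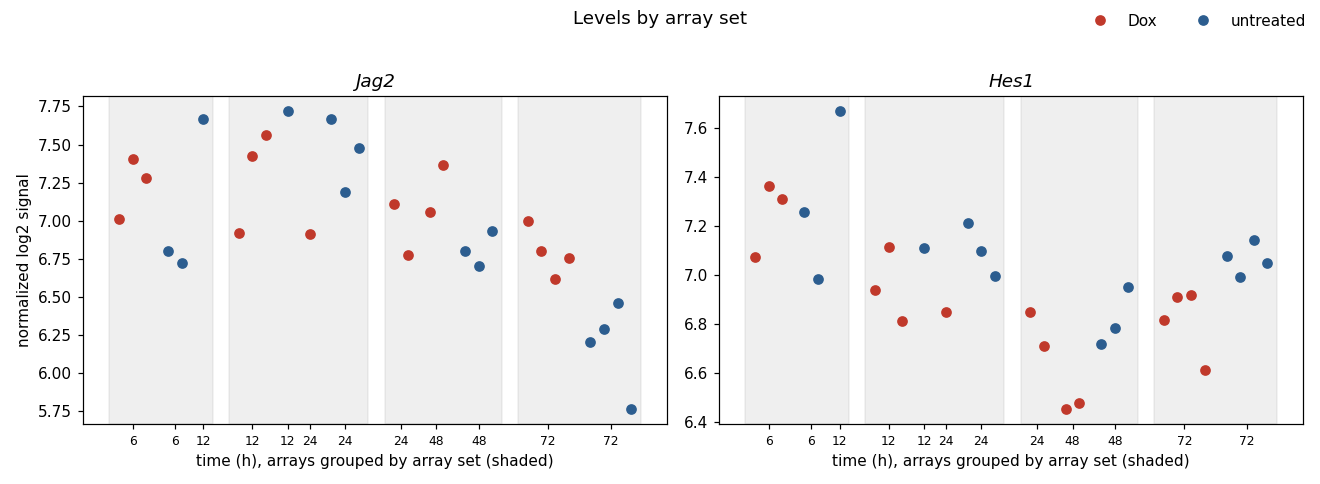
Normalized log2 signal (y axis) of Jag2 and Hes1 on 29 arrays, grouped by array set (shaded) and, within a set, by time in hours (x axis) with Dox before untreated. In the last set Jag2 is 6.62 to 7.0 on Dox arrays and 5.76 to 6.46 on untreated arrays, and Hes1 is 6.61 to 6.92 on Dox arrays and 6.99 to 7.14 on untreated arrays.

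The 250 bases before the annotated start of Jag2 are shown because Jag2 was the member called at 72 h, and those before the second annotated start of Dll1 because this was the only member window with a match to the AP-1 site, the site of Fos and Jun proteins. Windows come from RefSeq on build GRCm38.p6, at chr12:112929496-112929745 for Jag2 and chr17:15376933-15377182 for Dll1, both on the minus strand, and capitals mark the match.
Jag2: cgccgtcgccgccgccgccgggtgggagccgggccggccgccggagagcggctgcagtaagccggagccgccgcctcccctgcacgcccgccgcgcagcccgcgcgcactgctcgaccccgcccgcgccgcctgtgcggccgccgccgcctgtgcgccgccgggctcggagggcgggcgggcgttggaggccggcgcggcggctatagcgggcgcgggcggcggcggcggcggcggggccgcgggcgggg
Dll1: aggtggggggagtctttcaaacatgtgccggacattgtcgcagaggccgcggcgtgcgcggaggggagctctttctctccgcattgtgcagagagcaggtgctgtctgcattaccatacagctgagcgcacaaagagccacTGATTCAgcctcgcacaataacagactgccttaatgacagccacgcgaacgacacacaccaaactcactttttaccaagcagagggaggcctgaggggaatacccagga
Windows were found for Notch1, Notch2, Notch3, Jag1, Jag2, Dll1, Rbpj and Maml1, and none for the targets Hes1 and Hey1, which were thus not searched. The motifs searched on both strands were TGANTCA, the AP-1 site, and TGGGAA, the core of the Rbpj site. The match in the Dll1 window begins 109 bases before the start, and 6.75% of 32851 promoter windows of this length hold TGANTCA. The core TGGGAA was found in both windows of Rbpj and in no other member window, beside 21.6% of all windows. The Rbpj windows overlap, and the match in the second also lies in the first. The Jag2 window holds neither motif and has a GC content of 87.2%.

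Dll1, a Delta-like ligand, was detected on every array and called at no time. Its level at 12 h was 6.01, 5.97 and 5.85 on Dox arrays and 6.42 and 6.59 on untreated arrays, the only time at which its groups did not overlap (-0.56 ± 0.24, SE, adjusted p = 0.295). At the other times its differences were -0.19, -0.13, 0.21 and -0.05 at 6, 24, 48 and 72 h. Jag1, the other Jagged ligand, was not detected on any Dox array at 6 h (4.41, 4.42 and 4.38) and was detected on 1 of 2 untreated arrays (4.94 and 5.13). The untreated mean of Jag1, which includes the undetected replicate 1, was 1.11-fold above the detection limit of the Dox arrays. The fitted Jag1 difference at 6 h was called lower (-0.63, adjusted p = 0.00416). That call was lost without untreated replicate 2, the only 6 h array that detected it (-0.54, adjusted p = 0.0698), with the Actb covariate, where the difference was larger (-1.01, adjusted p = 0.1), and on the authors' values (-0.09, adjusted p = 0.315). From 12 h on the Jag1 differences were 0.05, 0.02, -0.05 and -0.16, none called, with 1 detected array in each of the groups Dox 24 h, Dox 48 h, untreated 24 h, untreated 48 h and untreated 72 h.

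**Figure D3:**
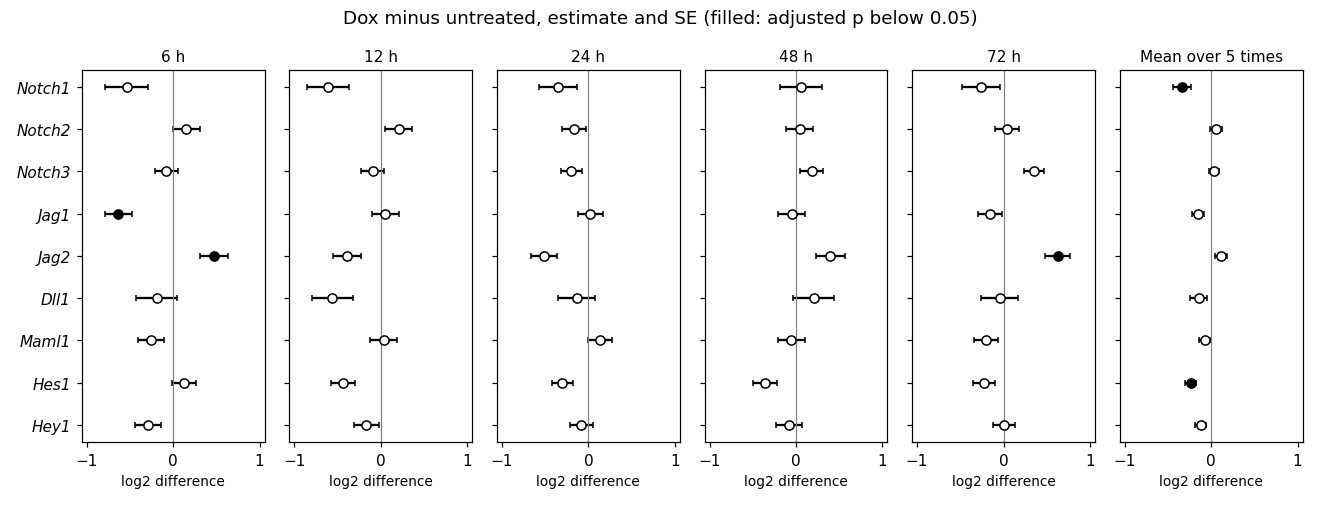
Log2 difference, Dox minus untreated (x axis), with its SE (bars), of the 9 Notch probes (rows) at each of 5 times and in the mean over 5 times. Filled points have an adjusted p below 0.05. Jag2 lies right of 0 at 6, 48 and 72 h and left of 0 at 12 and 24 h, and Hes1 lies left of 0 from 12 to 72 h, between -0.43 and -0.23.

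Hes1, a basic helix-loop-helix repressor and the best known direct Notch target in the spinous layer, was lower with Dox in the mean over times. At 6 h its level was 7.07, 7.36 and 7.31 on Dox arrays and 7.26 and 6.98 on untreated arrays. At 12 h it was 6.94, 7.11 and 6.81 on Dox arrays and 7.67 and 7.11 on untreated arrays. The groups overlapped at both of these times. At 24 h Hes1 was 6.85, 6.85 and 6.71 on Dox arrays and 7.21, 7.10 and 7.0 on untreated arrays. At 48 h it was 6.45 and 6.48 on Dox arrays and 6.72, 6.78 and 6.95 on untreated arrays. At 72 h it was 6.82, 6.91, 6.92 and 6.61 on Dox arrays and 7.08, 6.99, 7.14 and 7.05 on untreated arrays. All Dox arrays lay below all untreated arrays at 24, 48 and 72 h.

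No single Hes1 difference was called: they were 0.13, -0.43, -0.30, -0.35 and -0.23 at the 5 times, with adjusted p = 0.549, 0.121, 0.214, 0.247 and 0.394. Without untreated replicate 2 the 12 h difference was called (-0.71, adjusted p = 0.00940), and the 24 h difference was called with median scaling (-0.61, adjusted p = 0.00512) and on the authors' values (-0.25, adjusted p = 0.00980). Their mean was -0.24 ± 0.06 (SE, adjusted p = 0.00490), and the mean of the 4 differences from 12 to 72 h was -0.33 ± 0.07 (SE, 1.26-fold lower with Dox, adjusted p = 0.00109), the only member called in that mean beside 10% of all probes, 4.99% lower. With all 5 times the call was lost with the array sets as a block (-0.17, adjusted p = 0.0529) and with the Actb covariate (-0.13, adjusted p = 0.571). Without 6 h, the only time with a Hes1 difference above 0, it held under both (-0.25, adjusted p = 0.0258, and -0.28, adjusted p = 0.0287), on the authors' values (-0.14, adjusted p = 0.00300) and with median scaling (-0.39, adjusted p = 0.000424). These combinations without 6 h were chosen after seeing the data. Hey1, a target related to Hes1, was detected on 1 untreated array at 6 h and 1 at 24 h and on no Dox array, and Maml1, the coactivator, on 2 Dox and 2 untreated arrays. Their differences ran from -0.29 to 0.01 and from -0.26 to 0.13 over the 5 times, and none was called.

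Within a treatment, the level at 48 h or 72 h was also set against that at 6 h. In Dox cultures Notch1 rose by 48 h (1.1 ± 0.24, SE, adjusted p = 0.00137, 6.32 at 48 h and 5.22 at 6 h on average) and Hes1 fell (-0.78 ± 0.14, SE, adjusted p = 0.000112, 6.46 at 48 h and 7.25 at 6 h), the 2 of 9 members called beside 25.9% of all probes. By 72 h Notch1 was higher (0.71), and Hes1 (-0.42) and Jag2 (-0.40) lower, 3 members called beside 35.9% of all probes. In untreated cultures Notch3 fell by 48 h (-0.60 ± 0.13, SE, adjusted p = 0.000650), 1 member called beside 41.7%, and by 72 h Jag2 (-0.56), Jag1 (-0.46) and Notch3 (-0.37) were called lower, beside 44.4%. Time and array set cannot be told apart in the 72 h comparisons. With the sets as a block no member was called at 48 h in either treatment: Notch1 in Dox cultures was at 1.1 with a larger SE (adjusted p = 0.425), Hes1 in Dox cultures at -0.16 (adjusted p = 0.867) and Notch3 in untreated cultures at -0.68 (adjusted p = 0.203). On the authors' values the changes by 48 h were -0.13 for Hes1 in Dox cultures (adjusted p = 0.0585) and 0.11 for Notch3 in untreated cultures (adjusted p = 0.0379), the Notch3 change being against the direction above. With the Actb covariate that Notch3 change was -0.27 (adjusted p = 0.517), and those of Notch3 and Jag2 by 72 h in untreated cultures were -0.09 and -0.15, no longer called. With median scaling no Hes1 or Jag2 change by 72 h in Dox cultures was called (0.03 and 0.04), nor any of Notch3, Jag1 and Jag2 in untreated cultures (-0.12, -0.31 and -0.30). On the authors' values the Hes1 and Jag2 changes by 72 h in Dox cultures were 0.23 and 0.23, and the Notch3, Jag1 and Jag2 changes by 72 h in untreated cultures 0.14, 0.06 and 0.15, all against the direction above. Leaving out 1 array also ended calls: Notch1 in Dox cultures without Dox 48 h replicate 2 (0.80 by 48 h, adjusted p = 0.0728), without Dox 6 h replicate 1 (0.54 by 72 h, adjusted p = 0.0866) or Dox 72 h replicate 3 (0.58, adjusted p = 0.0739), and Jag2 in Dox cultures without Dox 6 h replicate 2 or 3 (-0.32 and -0.38) or Dox 72 h replicate 2 or 3 (-0.39 and -0.33). In untreated cultures the 72 h calls were lost without untreated 6 h replicate 2 for Notch3 (-0.19) and Jag1 (-0.37), without untreated 6 h replicate 1 for Jag2 (-0.52), without untreated 72 h replicate 3 for Notch3 (-0.34) and without untreated 72 h replicate 1 for Jag1 (-0.42). In the authors' values the median of all probes rose by 0.27 in Dox cultures and by 0.25 in untreated cultures by 72 h.

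Of 62 other genes of the pathway, in a list of receptors and ligands, processing enzymes, traffic and turnover factors, nuclear cofactors and further targets, 31 were measured. At 6 h 3 were called higher and 7 lower with Dox, beside 24.3% of all 8271 genes, 10.1% higher and 14.2% lower, where each gene is represented by its brightest probe. Higher were Psenen, a gamma-secretase subunit (0.47), Fbxw7, a ubiquitin ligase that ends Notch signalling (0.68), and Tle3, a Groucho-family corepressor not detected on untreated arrays, with its second probe at 0.13. The Dox mean of Tle3 (5.16) was 1.19-fold above the detection limit of the untreated arrays (4.90), but Dox replicate 2 (4.63), not detected, lay below it. The Tle3 call was lost with cyclic loess (0.59, adjusted p = 0.0963), with median scaling (0.55, adjusted p = 0.0684) and without Dox replicate 1 or 3 (0.63 and 0.52, adjusted p = 0.128 and 0.195). The Psenen call was lost with median scaling (0.12), on the authors' values (0.32), and without untreated replicate 2 (0.35) or Dox replicate 3 (0.39). The Fbxw7 call was lost on the authors' values (0.18), without either untreated replicate (0.68 and 0.69) and without Dox replicate 3 (0.48). Lower were Adam17 (-0.92) and Poglut1 (-0.46), which cut and glycosylate Notch, Mib2 (-0.43) and Dtx3 (-0.53), ubiquitin ligases, the corepressors Spen (-0.86) and Tle4 (-0.43), and Nrarp (-0.57), a target that restrains the pathway. The Tle4 call was lost on the authors' values (-0.26), with no detection filter, with array weights and with only the 2 groups fitted (-0.43 in these 3). It was also lost without untreated replicate 2 (-0.32) or Dox replicate 1 or 2 (-0.39 and -0.41). The Poglut1 call was lost on the authors' values (-0.20), with only the 2 groups fitted, and without untreated replicate 2 (-0.37) or Dox replicate 3 (-0.38). That of Dtx3 was lost without untreated replicate 1 (-0.41). Furin, the protease that cuts the Notch precursor, was not called at 6 h by its brightest probe (0.01). Its second probe was called (-0.72, adjusted p = 0.0109). With the Actb covariate none of the 31 was called at 6 h, although several differences were of like size or larger: Adam17 -0.84, Nrarp -0.63, Mib2 -0.60, Psenen 0.77 and Fbxw7 1.01, while Spen was at -0.52, Tle4 at -0.25 and Tle3 at -0.25. On the authors' values 3 were called. Without untreated replicate 2 or without Dox replicate 3 the count at 6 h was 6.

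At 12 h Numbl, a Numb-family adaptor, was called lower, beside 1.38% of all genes, 0.447% lower. No Dox array detected it, and the fitted difference had an adjusted p of 0.0468. The untreated mean of Numbl (5.06) was 1.18-fold above the detection limit of the Dox arrays (4.82), but untreated replicate 2 (4.80) lay below that limit. The call was lost without any 1 of the 3 Dox replicates (-0.69, -0.69 and -0.63, adjusted p = 0.0785, 0.106 and 0.137) and with the array sets as a block (-0.41, adjusted p = 0.612). It was also lost without untreated replicate 1 (-0.41). At 24 h none was called beside 2.89% of all genes, with 8 of 31 at an unadjusted limma p below 0.05 beside 16.3% of all genes. At 48 h and at 72 h 1 gene was called, Bhlhe40 both times, lower with Dox, beside 2.59 and 6.25% of all genes, 1.20 and 3.34% lower. The median difference of the 31 genes was -0.07, -0.06, -0.06, -0.05 and 0.06 at the 5 times, beside -0.08, -0.01, -0.01, -0.01 and -0.01 over all genes.

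Bhlhe40, a basic helix-loop-helix repressor related to Hes proteins that many signals regulate, showed the largest difference of the 31 pathway genes at 48 and at 72 h. At 48 h its level was 7.29 and 7.39 on Dox arrays and 8.29, 7.95 and 8.38 on untreated arrays (-0.87 ± 0.18, SE, adjusted p = 0.00553). At 72 h it was 7.13, 7.19, 7.44 and 7.75 on Dox arrays and 8.75, 8.45, 8.69 and 8.67 on untreated arrays (-1.32 ± 0.16, SE, adjusted p = 3.12e-06). The groups did not overlap at either time. The 72 h call held under all 18 alternatives (-1.47 to -0.95). The 48 h call was lost without Dox replicate 1 (-0.82, adjusted p = 0.0932) or 2 (-0.92, adjusted p = 0.0516), with median scaling (-0.74, adjusted p = 0.0686) and on the authors' values (-0.49, adjusted p = 0.106). At 6, 12 and 24 h its differences were -0.40, -0.21 and -0.22, none called.

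**Figure D4:**
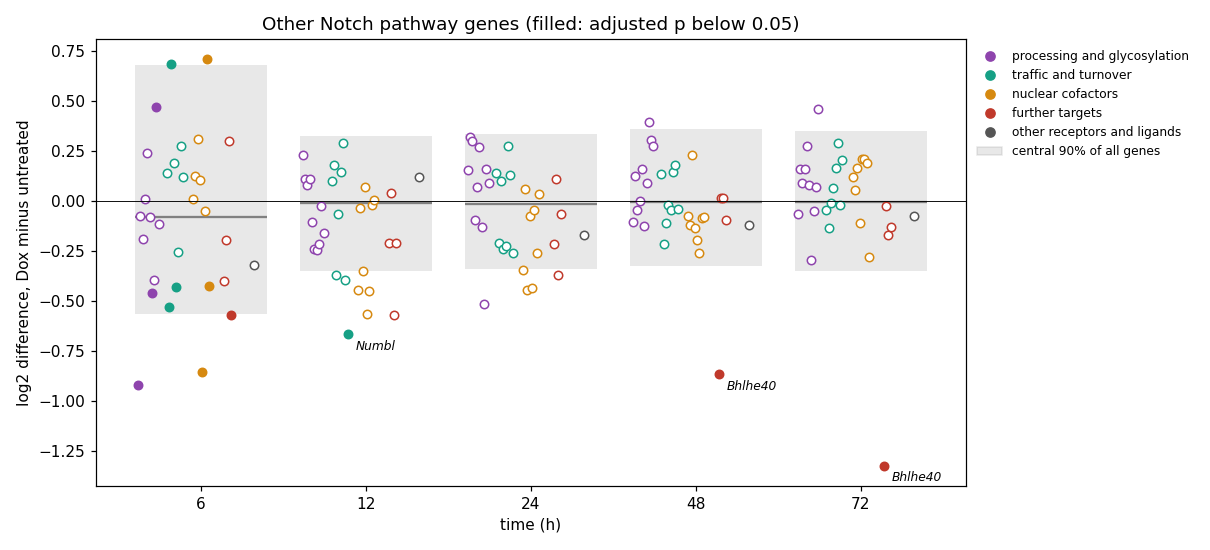
Log2 difference, Dox minus untreated (y axis), of the 31 measured pathway genes outside the 10 members, by time in hours (x axis) and coloured by role; filled points have an adjusted p below 0.05. Shaded boxes span the central 90% of 8271 genes and grey lines their median. Bhlhe40 lies at -0.87 at 48 h and -1.32 at 72 h, below the boxes.

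Of 9 keratinocyte genes tied to Notch in epidermis 7 were measured, among them Trp63, the transcription factor of basal keratinocytes that opposes Notch1 in mouse skin. At 72 h Trp63 was 11.73, 11.96, 11.75 and 11.77 on Dox arrays and 11.14, 11.31, 11.26 and 11.39 on untreated arrays, without overlap. It was the 1 gene of this list called at 72 h (0.56 ± 0.12, SE, adjusted p = 0.00288), beside 6.25% of all genes. Gata3, a transcription factor of the epidermal lineage, was the 1 called at 6 h (0.42, adjusted p = 0.00874), beside 24.3% of all genes. That call was lost without untreated replicate 1 (0.41, adjusted p = 0.0574), with median scaling (0.12, adjusted p = 0.656), on the authors' values (0.25, adjusted p = 0.168) and with the Actb covariate (0.79, adjusted p = 0.0665). The 3 probes of Cdkn1a, a cell cycle inhibitor, disagreed at 6 h: the brightest was at 0.19 and not called, another at -0.01, and the third was called at 1.40 (adjusted p = 0.000109). None of the 7 genes was called at 12, 24 or 48 h, where 1, 2 and 3 had an unadjusted limma p below 0.05, beside 12.3, 16.3 and 12.9% of all genes. The median difference of the 7 genes was 0.12, -0.01, -0.01, -0.10 and -0.07 at the 5 times.

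The genes whose 10 group means followed a member's most closely were taken from 3647 or 3648 genes with an SD of group means of at least 0.2. For Jag2 they were Mycbp2 (r = 0.96), Skiv2l (0.92) and Crkl (0.91). For Hes1 they were Itprid2 (r = 0.93), Cldn4 (0.92) and Tbc1d1 (0.90). For Notch1 they were Rfc4 (r = 0.96), Slc2a3 (0.96) and Diaph3 (0.95), and for Jag1 Pms2, Cab39l and Adam17 (0.88, 0.88 and 0.87). Jag1 was detected on 6 of 29 arrays, and its own SD of group means was 0.193, below the 0.2 asked of the other genes. Its r values thus rest mostly on background signal. Each r is a description over 10 group means, and the genes compared share their arrays and array sets.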

How the data were processed

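RNA of 29 samples was measured on Illumina bead arrays. The authors deposited the signals as non-normalized intensity values. Beside each signal the authors deposited a detection p-value. A second table holds log2 values that the authors deposited after a normalization that no label or header names. Each column of it was matched to its signal column through the labels. In R 4.3.3, limma 3.58.1 (its function neqc, offset 16) estimated the background through those p-values, subtracted it and applied quantile normalization. A probe stayed in when 2 or more arrays detected it (p below 0.01). A single limma fit with 10 group means over 27 replicates (17 residual degrees of freedom, prior 8.19, prior SD 0.159) gave all contrasts, adjusted by Benjamini-Hochberg over all kept probes at 0.05. Since nothing names separate cultures, the test's p covers only sample-to-sample spread, which may be technical. Of 11794 kept probes 11090 carry 1 gene symbol and 704 none.

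Array sets were read from the authors' values, which share 1 distribution within a set. The Actb covariate is the difference of a pair of Actb probes. It separated the treatments at 6, 12 and 72 h, so a call lost with it can reflect a larger SE. Where no array of a group detected a probe, the fold sets the mean of the other group against the lowest detected signal on those arrays. Single arrays of the other group can lie below that limit. All 10 members are named, pathway and keratinocyte genes where called at a time, Fos as the transgene's gene, and the 3 genes most like a member over group means. Furin, Cdkn1a and the single cell type markers given with differences were picked after their values were seen. The members, lists and tests were chosen with earlier results of these data known. The limma fit was tested on simulated data with independent noise around each probe's mean and added differences of known size. Those data held no array sets, time effects, background correction or normalization, so the test does not cover these. Alternatives are given at the end. Promoter windows are RefSeq sequence on GRCm38.p6.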

Additional observations from a re-analysis of the deposited data

Results flagged for a closer look

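The Dox effect on Jag2 differed between times in an F test that sets each later effect against the 6 h effect (adjusted p = 0.000527, F = 11.7). The log2 differences were 0.47, -0.39, -0.51, 0.40 and 0.63 at 6, 12, 24, 48 and 72 h. Under 38 alternatives the adjusted p ran from 0.000256 to 0.0196. At 12 and at 24 h a part of the compared arrays came from another array set.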

How the results depend on the processing

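Counts of called members moved with the setting. At 6 h (2 called) the count was 1 with median scaling, no detection filter, a stricter filter, the letter C arrays kept separate, array weights, the replicate block by letter or only the 2 groups fitted, and 0 on the authors' values and with the Actb covariate. At 24 h (0 called) it was 1 with no background correction and 2 on the authors' values or with median scaling. At 72 h (1 called) it was 0 on the authors' values or with median scaling, and 2 with the letter C arrays separate, array weights, the Actb covariate or only the 2 groups fitted. In the mean over 5 times (2 called) it was 1 on the authors' values, with no filter, without 6 h and without 6 h in each of 4 combinations chosen after seeing the data (array sets as a block, Actb covariate, authors' values, median scaling), and 0 with the array sets as a block or the Actb covariate. For untreated cultures 48 h against 6 h it was 6 on the authors' values, 0 with the set block or the Actb covariate and 2 with only the 2 groups; at 72 h against 6 h it was 1 with median scaling or the Actb covariate and 5 on the authors' values. For Dox cultures it was 6 on the authors' values, 0 with the set block and 4 with the Actb covariate at 48 h, and 8 on the authors' values at 72 h.

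Of the 31 pathway genes 3 were called at 6 h on the authors' values and 0 with the Actb covariate. At 12 h 0 were called with no background correction, median scaling, no filter, array weights, the replicate block, the set block, the Actb covariate or only the 2 groups, 2 with cyclic loess and 3 on the authors' values. Median scaling gave 10 and the authors' values 6 at 24 h, both gave 0 at 48 h, and at 72 h 2 with array weights or only the 2 groups. Leaving out 1 replicate gave 0 to 2 members at 6 h, 0 to 1 at 12, 24 and 72 h, 0 at 48 h, 1 to 2 in the mean and in the test between times, 1 to 3 and 1 to 4 in untreated cultures at 48 and 72 h, and 1 to 2 and 1 to 3 in Dox cultures. For pathway genes it gave 6 to 10, 0 to 2, 0 to 1, 0 to 2 and 1 at the 5 times.

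Same-letter samples were not paired: of 12 pairs of deviations from group means 1 correlated above 0.1 (-0.05 to 0.15). With the replicate block Jag2 at 6 h was 0.45 (adjusted p = 0.0591) and Numbl at 12 h -0.69 (adjusted p = 0.0580), both no longer called.

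Some signs turned. With the Actb covariate these were Notch2 (-0.066), Notch3 (0.28), Dll1 (0.72), Maml1 (0.022) and Tle3 (-0.25) at 6 h, Notch3 (0.059) and Jag1 (-0.11) at 12 h, and Notch2 (-0.018), Dll1 (0.16) and Maml1 (0.025) in the mean, with Dll1 at 0.022 and Maml1 at 0.026 without 6 h. On the authors' values they were Notch3 at 12 h (0.053) and 24 h (0.014), Notch2 (0.053) and Hey1 (0.072) at 24 h, Maml1 in the mean (0.0063), and without 6 h Jag1 (0.017), Maml1 (0.017) and Hey1 (0.012). They were also the changes with time of Notch3 in untreated cultures (0.11 at 48 h, 0.14 at 72 h), of Jag1 (0.061) and Jag2 (0.15) at 72 h there, and of Jag2 (0.23) and Hes1 (0.23) at 72 h in Dox cultures. With median scaling Hes1 at 6 h was -0.11, Jag2 in the mean without 6 h -0.034, and Jag2 and Hes1 at 72 h in Dox cultures 0.040 and 0.027. With the set block Notch2 and Maml1 at 24 h were 0.047 and -0.16. Leaving out 1 replicate gave ranges across 0 of -0.16 to 0.46 for Notch2, -0.26 to 0.10 for Notch3 and -0.67 to 0.29 for Dll1 at 6 h, -0.17 to 0.045 for Notch3 at 12 h, and -0.22 to 0.069 for Hey1 at 24 h. At 48 h they were -0.24 to 0.36 for Notch1, -0.15 to 0.15 for Jag1, -0.23 to 0.64 for Dll1 and -0.22 to 0.11 for Maml1, and at 72 h -0.47 to 0.019 for Notch1. The causes were not tested. Low signal limits Notch2, Jag1, Maml1 and Hey1, which few arrays detected, and 2 or 3 replicates a group limit every value.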
